A study of Mus musculus with 6 samples.

Results

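The genes described here encode the nuclear subunits of the mitochondrial respiratory chain and ATP synthase, compared by array in the livers of profilin 2 knockout and wild-type mice (profilin 2 is an actin-binding protein). They were taken by gene symbol, as NADH dehydrogenase subunits (Nduf followed by a, b, c, s or v and a number), Sdha to Sdhd, Cyc1 and symbols that begin with Uqcr, Cox4 to Cox8 or Atp5. The rule found 81 of the 22180 genes tested, of which 79 are subunit genes and 2 are pseudogenes, Atp5c1-ps and Uqcrh-ps1. By complex there were 31 genes of complex I, 4 of complex II, 8 of complex III, 19 of complex IV and 17 of ATP synthase, also called complex V. Ndufa4 was counted with complex IV, where its protein is now placed, together with its paralog Ndufa4l2. The 10 rows that name a subunit together with another gene were not used, so some subunits were not analysed here.

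The series holds 3 arrays of Pfn2-/- liver and 3 of wild-type liver, all from untreated C57BL/6 mice. In both genotypes replicates 1, 2 and 3 came from animals of 9, 8.5 and 8 months. The sources used here do not give the sex of the animals or how the Pfn2 allele was made. Each array gave a log2 expression value per row, made by RMA, a method that corrects background, normalizes arrays to each other and combines probes. All differences are Pfn2-/- minus wild type on that scale with the standard error (SE) of a limma fit over all genes. The series' design text calls the samples of a genotype independent biological replicates, and their number limits the precision.

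The respiratory chain passes electrons from NADH, through complex I, and from succinate, through complex II, to ubiquinone, then through complex III and cytochrome c to oxygen at complex IV. Complexes I, III and IV pump protons, and ATP synthase lets the protons return through its membrane ring to drive ATP production in its head. Most subunits are made from nuclear genes, a few from mitochondrial DNA, and hepatocytes hold many mitochondria because gluconeogenesis, urea synthesis and fatty acid oxidation depend on them. Several subunits of complex IV exist in a common form and in a form restricted to heart and skeletal muscle, lung or testis.

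Some arrays stood apart in other gene groups, and the row of the deleted gene overlapped between genotypes. Pfn2 lay at 3.88, 3.81 and 3.93 in Pfn2-/- liver and at 4.02, 3.85 and 4.09 in wild-type liver, in a dim row that cannot check the labels. The heat shock gene Hspa1b lay at 8.65 in Pfn2-/- replicate 3 and at 5.51 to 6.38 elsewhere, and the fatty acid synthase gene Fasn at 11.84 in wild-type replicate 3 and at 9.12 to 10.17 elsewhere. The acute-phase gene Saa2 lay at 10.83, 7.31 and 12.22 in Pfn2-/- liver and at 7.80, 7.11 and 6.76 in wild-type liver, a difference of 2.90 (unadjusted p under 0.05 by limma) with overlap at Pfn2-/- replicate 2. The 10 hepatocyte markers had a mean level of 11.13 to 11.18 in Pfn2-/- arrays and 11.10 to 11.32 in wild-type arrays, with Alb at 12.93 to 12.97 in Pfn2-/- arrays and 12.98 to 13.00 in wild-type arrays. The 5 measured cholangiocyte markers averaged 4.55 to 4.65 in Pfn2-/- arrays and 4.39 to 4.42 in wild-type arrays, with 2 of them higher at an unadjusted p under 0.05, and the 10 macrophage markers averaged 7.34 to 7.44 in Pfn2-/- arrays and 7.20 to 7.89 in wild-type arrays. The 8 endothelial markers averaged 7.91 to 8.16 in Pfn2-/- arrays and 7.95 to 8.37 in wild-type arrays, and the 9 stellate cell and fibroblast markers 6.47 to 6.60 in Pfn2-/- arrays and 6.50 to 6.70 in wild-type arrays, with 1 marker lower at p under 0.05 in each list. The median difference was -0.06 for hepatocyte, -0.11 for macrophage, -0.08 for endothelial, -0.10 for stellate cell and 0.05 for cholangiocyte markers. Most of these lists had medians close to the -0.08 of the subunit genes given below. The median was -0.03 for T and B cell and 0.12 for neutrophil markers. Marker lists of other tissues had medians of -0.07 (adipocyte), -0.03 (testis), 0.05 (muscle) and 0.07 (pancreas and gut). The part of other cells and of these arrays in the differences below was not tested, and in whole liver fewer cells of a type and less RNA per cell cannot be told apart. Of 81 members, 71 had a mean above the median of all gene means, and 5 lay below the lower quartile of all rows (3.51 to 3.57) on at least 1 array.

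No respiratory chain gene passed the test between the genotypes, and the differences were small and mostly below 0. With limma and Benjamini-Hochberg adjustment over all genes, 0 of 81 members passed an adjusted p of 0.05 (smallest adjusted p = 0.788), against 0% of all genes. Of the 79 subunit genes, 62 had a difference below 0 and 16 above 0, with a median of -0.08, where all genes had 49.9% below 0 and a median of 0.00. Among genes brighter than the median, 6134 of 11088 lay below 0, with a median of -0.02, and 56 of the 71 members in that range did so, with a median of -0.08. For the row used for each subunit gene, the 95% confidence interval excluded a log2 difference of 1 in either direction. That of 72 of 79 excluded a 1.5-fold difference. These intervals hold for the rows, some of which are dim or, as described below, uncertain as measures of their genes.

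At an unadjusted p under 0.05 there were 5 members lower in Pfn2-/- liver, Ndufa11, Atp5g1, Atp5e, Sdhd and Cox7a2, and 0 higher. Among all genes 2.62% were lower and 2.67% higher by this measure. The 3 Pfn2-/- values lay below all 3 wild-type values in 16 members and above them in 0, where 4.76% of all genes lay below and 5.09% above without overlap. All of these 16 members and of the 5 at p under 0.05 were brighter than the median of gene means. Of the 11088 genes in that range, 698 lay below and 487 above without overlap. At p under 0.05, 386 of them were lower and 273 higher. The 16 were made up of 7 genes of ATP synthase, 5 of complex I, 2 of complex II and 2 of complex IV. Subunit genes were measured on the same 6 arrays, so they are not independent of each other, and no test was made over the list. With fewer arrays the precision is also lower, and the count of 5 fell when any single array was left out. It was 3 without wild-type replicate 1, 1 without wild-type replicate 2, 3 without wild-type replicate 3, 3 without Pfn2-/- replicate 1, and 2 without Pfn2-/- replicate 2 or 3. It was also 2 without both arrays of number 3. The count without Pfn2-/- replicate 1 includes Cox4i2, which is not among the 5. With 1 array left out, the row used for Ndufa11 stayed at p under 0.05 in all 6 limma fits. Atp5e, Atp5g1 and Sdhd did so in 2 of 6 and Cox7a2 in 1 of 6.

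**Figure D1:**
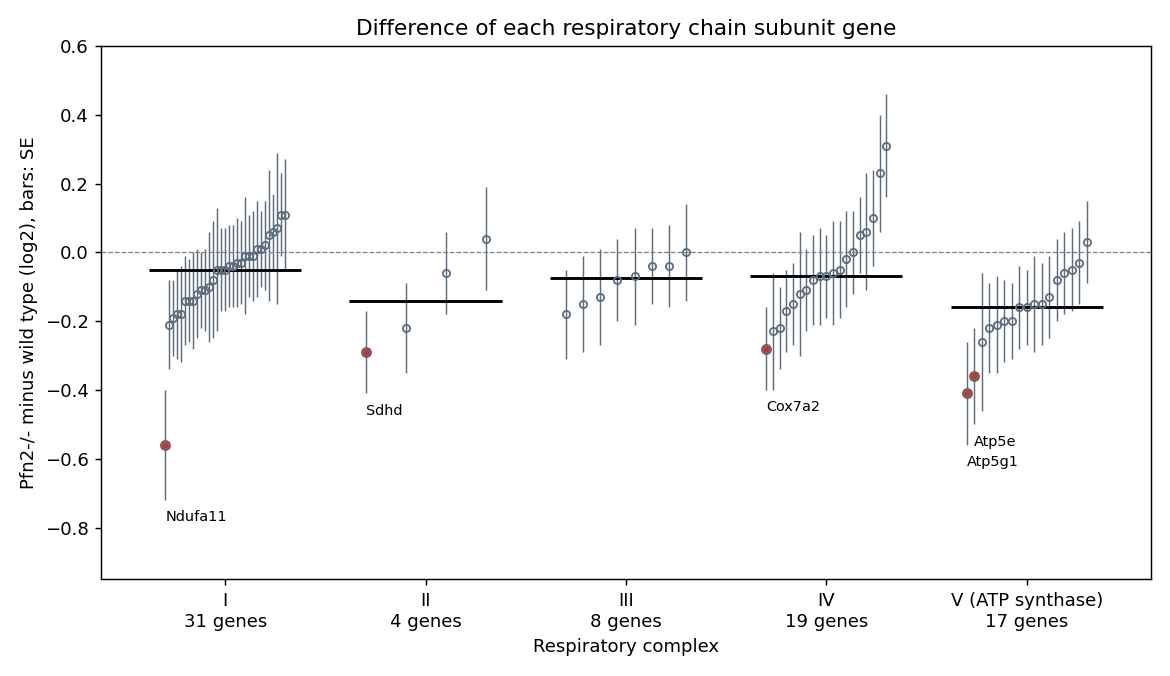
Difference of each of the 79 subunit genes (Pfn2-/- minus wild type, log2, bars SE), sorted within each complex, with the median of the complex as a black line. The 5 filled and named points had an unadjusted p under 0.05. ATP synthase had 16 of 17 genes below 0, beside 49.9% of all genes.

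The promoters of the members were searched for motifs of factors known to act on respiratory chain genes, a feature that the choice of genes did not use. Nuclear respiratory factor 1 (NRF1) and the ETS factor GABP, also called NRF2, activate many of these genes, and YY1 acts at some. RefSeq (GRCm38.p6) windows from 250 bases before to 50 after the start were at hand for 64 of the 81 members and 16918 of all genes tested. The NRF1 motif GCGCANGCG, on either strand, was found in 28.1% of members and 9.7% of all genes. The GABP motif CCGGAAG was found in 26.6% of members and 12.7% of all genes, and the YY1 motif AANATGGCG in 14.1% of members and 3.7% of all genes. The TATA box TATAAA was found in 12.5% of members and 14.3% of all genes. The median GC content was 57.8% in members and 57.3% in all genes, but the median number of CpG dinucleotides was 19 and 15. The NRF1, GABP and YY1 motifs each hold a CpG and the TATA box does not. The part of CpG content in these shares was not tested. A gene with several windows counts if any of them holds the motif, the motifs can overlap, and a match is not a bound site.

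**Figure D2:**
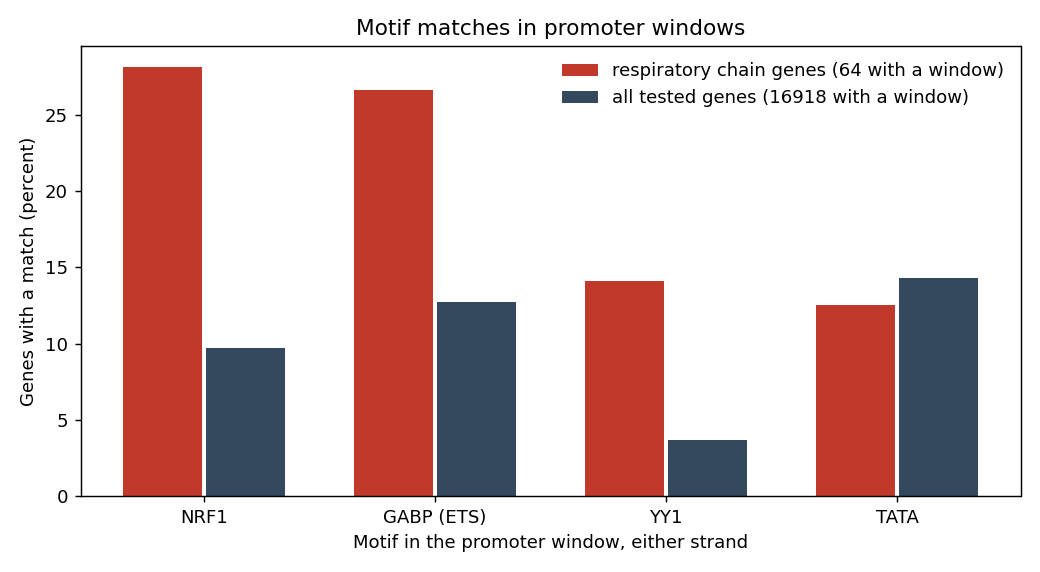
Percent of genes with at least 1 match of a motif in the RefSeq promoter window, on either strand, for the 64 members (red, left) and the 16918 tested genes (dark, right) that have a window. Members exceed all genes for NRF1 (28.1% against 9.7%), GABP (26.6% against 12.7%) and YY1 (14.1% against 3.7%), and not for TATA.

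By complex, the NRF1 motif was in 7 of 15 genes of ATP synthase with a window, 6 of 28 of complex I, 2 of 3 of complex II, 2 of 4 of complex III and 1 of 14 of complex IV. Of the 4 tissue forms with a window 0 held an NRF1, GABP or YY1 match and 2 held a TATA box. The windows of the 5 members with the smallest p are shown because these genes lead the comparison, and that of the muscle form Cox7a1 is set beside the common form Cox7a2. Capitals mark every match to the motifs above, and all sequences run 5′ to 3′ along the gene.
Ndufa11, chr17:56717512-56717811, + strand: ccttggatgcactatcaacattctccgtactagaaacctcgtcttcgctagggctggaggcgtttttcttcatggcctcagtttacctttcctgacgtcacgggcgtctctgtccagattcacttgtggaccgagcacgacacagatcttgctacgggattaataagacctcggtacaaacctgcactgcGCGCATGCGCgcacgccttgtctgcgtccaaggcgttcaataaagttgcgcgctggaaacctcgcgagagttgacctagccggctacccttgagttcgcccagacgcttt
Sdhd, chr9:50603800-50604099, - strand: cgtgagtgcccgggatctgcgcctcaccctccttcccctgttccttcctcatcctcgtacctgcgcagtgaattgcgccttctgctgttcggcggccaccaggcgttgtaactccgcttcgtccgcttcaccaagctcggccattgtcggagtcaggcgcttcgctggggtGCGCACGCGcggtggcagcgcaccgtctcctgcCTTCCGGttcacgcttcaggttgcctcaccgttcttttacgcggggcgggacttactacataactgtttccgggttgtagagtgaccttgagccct
Atp5e, chr2:174464052-174464351, - strand: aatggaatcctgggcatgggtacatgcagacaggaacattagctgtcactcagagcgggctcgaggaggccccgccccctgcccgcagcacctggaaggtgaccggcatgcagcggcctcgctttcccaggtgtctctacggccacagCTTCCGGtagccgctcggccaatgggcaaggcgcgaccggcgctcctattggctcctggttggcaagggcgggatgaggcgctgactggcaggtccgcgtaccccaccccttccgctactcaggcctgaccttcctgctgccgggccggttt
Atp5g1, chr11:96075582-96075881, - strand: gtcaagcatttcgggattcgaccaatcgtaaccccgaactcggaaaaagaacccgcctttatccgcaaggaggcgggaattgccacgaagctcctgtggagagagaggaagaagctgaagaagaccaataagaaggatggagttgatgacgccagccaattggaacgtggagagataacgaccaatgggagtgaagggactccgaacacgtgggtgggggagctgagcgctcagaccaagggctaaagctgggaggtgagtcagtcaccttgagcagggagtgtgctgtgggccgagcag
Cox7a2, chr9:79759804-79760103, - strand: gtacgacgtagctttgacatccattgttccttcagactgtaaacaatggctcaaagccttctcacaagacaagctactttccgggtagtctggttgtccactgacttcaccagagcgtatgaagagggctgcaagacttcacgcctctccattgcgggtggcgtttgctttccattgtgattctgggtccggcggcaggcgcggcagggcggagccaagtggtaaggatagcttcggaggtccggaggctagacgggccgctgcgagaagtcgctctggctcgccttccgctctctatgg
Cox7a1, chr7:30183921-30184220, + strand: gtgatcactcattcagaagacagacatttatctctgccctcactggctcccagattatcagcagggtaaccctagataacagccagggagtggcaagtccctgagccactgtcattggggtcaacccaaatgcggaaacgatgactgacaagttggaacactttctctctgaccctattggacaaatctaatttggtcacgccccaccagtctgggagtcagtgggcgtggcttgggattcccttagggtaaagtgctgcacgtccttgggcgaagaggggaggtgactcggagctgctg

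Among these windows Ndufa11 held NRF1 matches that overlap on both strands, Sdhd an NRF1 and a GABP match, and Atp5e a GABP match. No match was found in the windows of Atp5g1, Cox7a2 and Cox7a1, which says only that these letters are not there. Of the 5 members lower at p under 0.05, 2 thus held the NRF1 motif and 2 the GABP motif. Cox7a2 had 20 CpG dinucleotides in its window and Cox7a1 had 7, where the median of all genes was 15.

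Of the Pfn2-/- arrays, replicate 1 lay closest to wild type over the members. After each gene was centred on its mean over 6 arrays, the median of all members was 0.00, -0.07 and -0.08 in Pfn2-/- replicates 1, 2 and 3, and 0.01, 0.04 and 0.07 in wild-type replicates 1, 2 and 3. Pfn2-/- replicate 1 thus lay just below the wild-type arrays and the other Pfn2-/- arrays lower. For complex I the medians were 0.01, -0.04 and -0.09 in Pfn2-/- liver and 0.01, 0.01 and 0.06 in wild-type liver. Complex III gave 0.02, -0.06 and -0.15 in Pfn2-/- liver, against 0.05, 0.04 and 0.04 in wild-type liver, and complex IV gave -0.01, -0.06 and -0.08 in Pfn2-/- liver, against -0.01, 0.03 and 0.05 in wild-type liver. Complex II lay at -0.05, -0.07 and -0.18 in Pfn2-/- liver and 0.02, 0.10 and 0.17 in wild-type liver. ATP synthase lay at -0.06, -0.15 and -0.06 in Pfn2-/- liver and at 0.02, 0.07 and 0.10 in wild-type liver. The medians of complexes II and III and of ATP synthase did not overlap between genotypes, while those of complexes I and IV met at Pfn2-/- replicate 1.

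**Figure D3:**
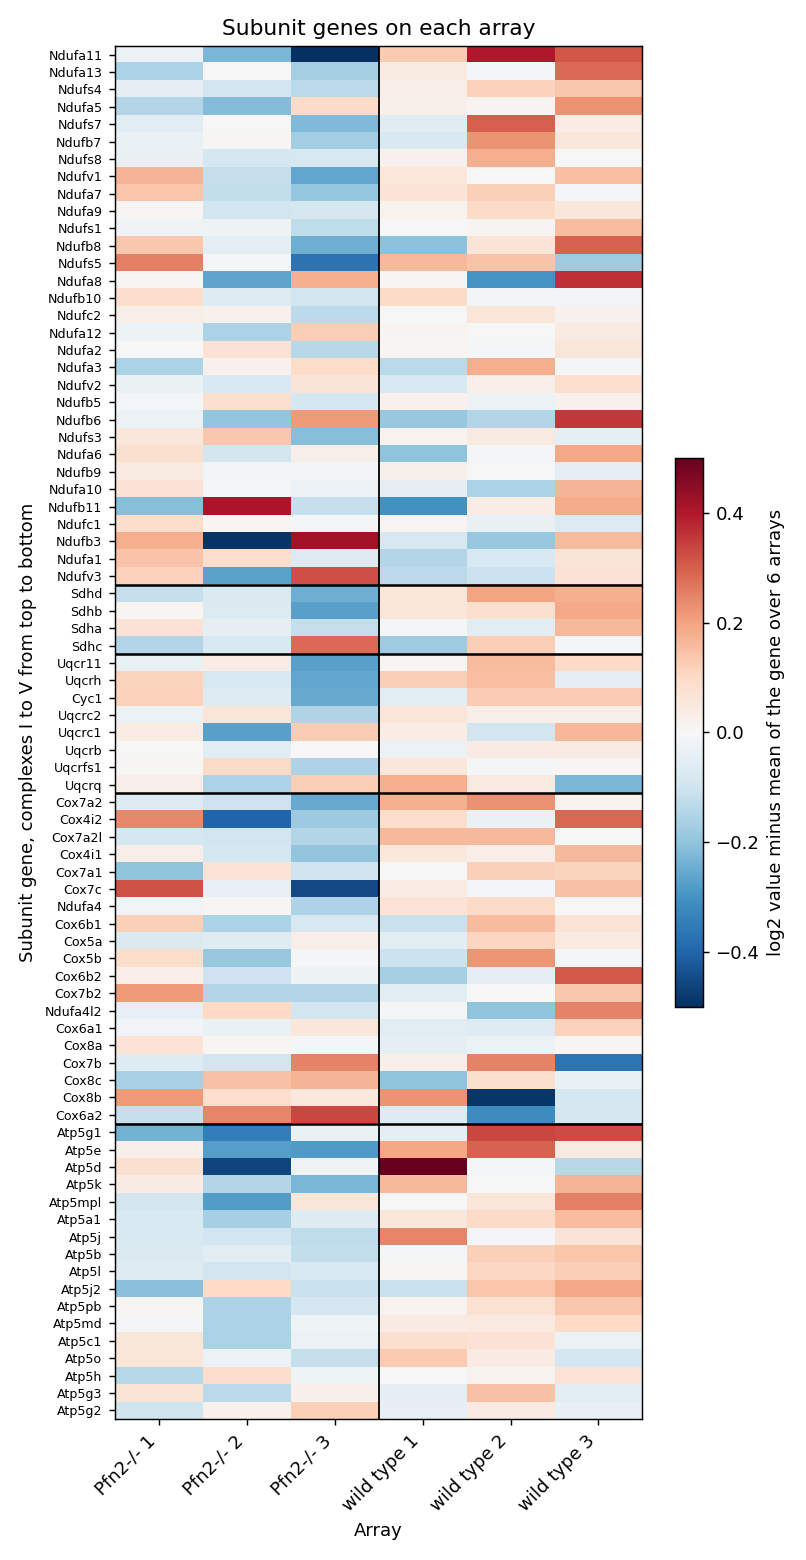
Each row is a subunit gene and each column an array, Pfn2-/- on the left and wild type on the right. The colour is the log2 value minus the gene's mean over 6 arrays, with the colour scale ending at 0.5 in either direction, and black lines separate complexes I to V. The ATP synthase block at the bottom and the complex II block are mostly below the mean in Pfn2-/- arrays and above it in wild-type arrays, while complex I is mixed.

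Complex I takes electrons from NADH and was the largest set. Of its 31 genes 23 lay below 0, with a median of -0.05. At p under 0.05, 1 was lower and 0 were higher, beside 2.62% and 2.67% of all genes. All 5 genes of the ubiquinone reduction module lay below 0 (median -0.14), as did 7 of 9 of the NADH oxidation module (median -0.04) and 11 of 17 of the membrane arm (median -0.03). Ndufa11, an accessory subunit of the membrane arm, had the smallest p of all members. Its row lay at 7.67, 7.47 and 7.12 in Pfn2-/- liver and at 7.83, 8.10 and 8.01 in wild-type liver. The groups did not overlap, and Pfn2-/- replicate 3 was the lowest array. The difference was -0.56 (SE 0.16, 1.47-fold lower, limma adjusted p = 0.788), and -0.68 to -0.41 with single arrays left out. With the mean of both rows of the gene it was -0.15.

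A dimmer row of Ndufa11 had a difference above 0, with 5.24, 4.97 and 5.39 in Pfn2-/- liver and at 4.72, 4.70 and 5.41 in wild-type liver. These groups overlapped, with a difference of 0.26 (SE 0.20, unadjusted p = 0.234 in the limma fit of all rows). Row identifiers follow chromosome order. Where at least 8 of the nearest 10 named rows belonged to 1 chromosome, 99.5% of rows named a gene of that chromosome. The dimmer Ndufa11 row lies among genes of its own chromosome, and the brighter row among rows of mixed chromosomes, where a row's place in the genome cannot be told. For 75 of 81 members the row used lies among genes of the member's own chromosome. That of Cox7b and Uqcrb lies among mixed rows like that of Ndufa11, and that of Atp5g2, Atp5h and Cox5b among genes of another chromosome. Respiratory chain genes have processed copies elsewhere in the genome, so these 6 rows are uncertain as measures of their genes. With the row on the gene's own chromosome where there was one, 4 members were lower at p under 0.05 and 60 of 78 subunit genes lay below 0, Uqcrb being left out for want of such a row.

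Ndufs4, an accessory subunit beside the NADH-binding core, lay at 7.39, 7.34 and 7.30 in Pfn2-/- liver and at 7.47, 7.55 and 7.57 in wild-type liver. The difference of -0.19 (SE 0.11) rested on small spreads in both groups, which did not overlap. Ndufa13, of the membrane arm, lay at 7.49, 7.65 and 7.48 in Pfn2-/- liver and at 7.69, 7.64 and 7.93 in wild-type liver (-0.21, SE 0.13), with overlap at wild-type replicate 2. The core iron-sulfur genes Ndufs1, Ndufs7, Ndufs8 and Ndufv2 differed by -0.11, -0.18, -0.14 and -0.03, the flavin-binding Ndufv1 by -0.14 and the core gene Ndufs3 by -0.01. The row of Ndufb9, a membrane-arm subunit, lay at 11.81, 11.75 and 11.75 in Pfn2-/- liver and at 11.79, 11.76 and 11.72 in wild-type liver. Its values overlapped (0.01, SE 0.11, interval -0.24 to 0.26). Ndufs5, also of the membrane arm, differed by -0.08 (SE 0.17), and its sign turned without Pfn2-/- replicate 3 (0.08).

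Complex II, succinate dehydrogenase, links the citric acid cycle to ubiquinone and has 4 subunits, all encoded by nuclear genes. Sdhd, a membrane anchor, lay at 8.39, 8.43 and 8.26 in Pfn2-/- liver and at 8.56, 8.70 and 8.68 in wild-type liver. All Pfn2-/- values lay below wild type (-0.29, SE 0.12, 1.22-fold lower, unadjusted p = 0.0369 and limma adjusted p = 0.92). Sdhb, the iron-sulfur subunit, lay at 7.90, 7.82 and 7.62 in Pfn2-/- liver and at 7.95, 7.97 and 8.08 in wild-type liver (-0.22, SE 0.13), also without overlap. The catalytic flavoprotein gene Sdha differed by -0.06 (SE 0.12) and the other anchor, Sdhc, by 0.04 (SE 0.15), with overlapping groups for both. Sdhc lay at 8.07, 8.14 and 8.50 in Pfn2-/- liver and at 8.04, 8.34 and 8.21 in wild-type liver, so Pfn2-/- replicate 3 was high in this gene and low in Sdhb and Sdhd.

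Complex III hands electrons to cytochrome c. Of its 8 genes 7 lay below 0 and none above, with a median of -0.08, and 0 reached p under 0.05. Uqcr11, a small supernumerary subunit, lay at 6.43, 6.50 and 6.19 in Pfn2-/- liver and at 6.47, 6.62 and 6.56 in wild-type liver (-0.18, SE 0.13). Uqcrh, which sits at the cytochrome c side, differed by -0.15 (SE 0.14) and Cyc1, the cytochrome c1 gene, by -0.13 (SE 0.14). In all 3 genes the groups overlapped at Pfn2-/- replicate 1 or 2 and Pfn2-/- replicate 3 was the lowest array. The core protein genes Uqcrc1 and Uqcrc2 differed by -0.07 and -0.08, and the Rieske protein gene Uqcrfs1 by -0.04. Uqcrb, a small subunit, lay at 11.14, 11.08 and 11.14 in Pfn2-/- liver and at 11.11, 11.18 and 11.18 in wild-type liver (-0.04, SE 0.11). Uqcrq differed by 0.00 (SE 0.14).

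Complex IV, cytochrome c oxidase, passes electrons to oxygen. Of its 19 genes 13 lay below 0, with a median of -0.07. At p under 0.05, 1 was lower and 0 were higher, beside 2.62% and 2.67% of all genes. Cox7a2, the common form of subunit 7a, lay at 7.36, 7.32 and 7.17 in Pfn2-/- liver and at 7.60, 7.65 and 7.44 in wild-type liver. The groups did not overlap (-0.28, SE 0.12, 1.21-fold lower, unadjusted p = 0.0473 and limma adjusted p = 0.92). Its relative Cox7a2l lay at 7.21, 7.20 and 7.15 in Pfn2-/- liver and at 7.46, 7.46 and 7.30 in wild-type liver (-0.22, SE 0.12), again without overlap. Cox5a, Cox5b and Cox7c, which have a single form, differed by -0.07, -0.07 and -0.12.

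The other common forms differed by -0.17 to 0.06, with overlapping groups in all of them. Cox4i1 differed by -0.17 (SE 0.12), Cox6b1 by -0.08, Ndufa4 by -0.11, Cox6a1 by 0.00 (SE 0.12), Cox8a by 0.05 (SE 0.11) and Cox7b by 0.06 (SE 0.17). Cox6a1 lay at 11.46, 11.44 and 11.53 in Pfn2-/- liver and at 11.42, 11.41 and 11.59 in wild-type liver, and Cox8a at 9.26, 9.20 and 9.18 in Pfn2-/- liver and at 9.14, 9.16 and 9.20 in wild-type liver. Both rows had small spreads. For Cox7b the sign turned without both arrays of number 3 (-0.21), without wild-type replicate 3 (-0.11), without Pfn2-/- replicate 3 (-0.05), with the mean of its rows (-0.03) and with its row on the own chromosome (-0.13).

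None of the 7 tissue-restricted forms of complex IV separated the genotypes. Their rows ran from below the lower quartile of rows on all 6 arrays (Cox7b2 and Cox8c) to above the array medians on all 6 (Cox6a2 and Cox7a1). Cox6a2, the form of heart and skeletal muscle, had the highest difference of all subunit genes, at 4.99, 5.35 and 5.44 in Pfn2-/- liver and 5.04, 4.79 and 5.02 in wild-type liver (0.31, SE 0.15, unadjusted p = 0.0671). Pfn2-/- replicate 1 lay within the wild-type values and the other Pfn2-/- arrays above them, and without replicate 1 the difference was 0.45 (unadjusted p under 0.05, limma adjusted p = 0.996). The other muscle forms went in both directions, Cox8b at 0.23 (SE 0.17) and Cox7a1 at -0.15 (SE 0.12). Cox8b lay at 3.65, 3.52 and 3.49 in Pfn2-/- liver and at 3.66, 2.95 and 3.35 in wild-type liver, where wild-type replicate 2 was the lowest. The difference was 0.05 without that array and 0.40 without wild-type replicate 1 (unadjusted p under 0.05, limma adjusted p = 0.999). Cox4i2, the lung form, differed by -0.23 (SE 0.17), with Pfn2-/- replicate 1 at 4.92 and the other Pfn2-/- arrays at 4.28 and 4.50 against 4.65 to 4.97 in wild-type liver. It was -0.41 without Pfn2-/- replicate 1 (unadjusted p under 0.05, limma adjusted p = 0.996) and -0.09 without Pfn2-/- replicate 2. The testis forms Cox6b2, Cox7b2 and Cox8c differed by -0.06, -0.05 and 0.10, with SE of 0.14 to 0.15. Ndufa4l2, a paralog known to be induced by low oxygen, differed by -0.02 (SE 0.14), and its sign turned without both arrays of number 3 (0.13).

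The 16 markers of skeletal and heart muscle had a mean level of 4.16 to 4.21 in Pfn2-/- arrays and 4.10 to 4.22 in wild-type arrays, close to the array medians of 4.36 to 4.41, with 6 of the 16 below the array median on all 6 arrays. None reached p under 0.05. The differences of the 16 markers went in both directions, from -0.20 (Pvalb) to 0.27 (Myh2), with a median of 0.05. The creatine kinase gene Ckm lay at 4.57, 4.73 and 4.57 in Pfn2-/- liver and at 4.61, 4.20 and 4.43 in wild-type liver (0.21). The 7 measured markers of adipocytes averaged 4.29 to 4.48 in Pfn2-/- arrays and 4.28 to 4.41 in wild-type arrays.

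Within an array, the log ratio of a tissue form to its common form compares their genotype differences directly. For Cox6a2 over Cox6a1 the difference between genotypes was 0.31 (exact permutation test, two-sided, p = 0.2), for Cox7a1 over Cox7a2 it was 0.13 (exact p = 0.3) and for Cox4i2 over Cox4i1 it was -0.06 (exact p = 0.8). Over the 10 pairs tested, which include the c-subunit genes below, the smallest adjusted p was 0.5 by the exact permutation test, and 3 arrays against 3 cannot give an exact p below 0.1.

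**Figure D4:**
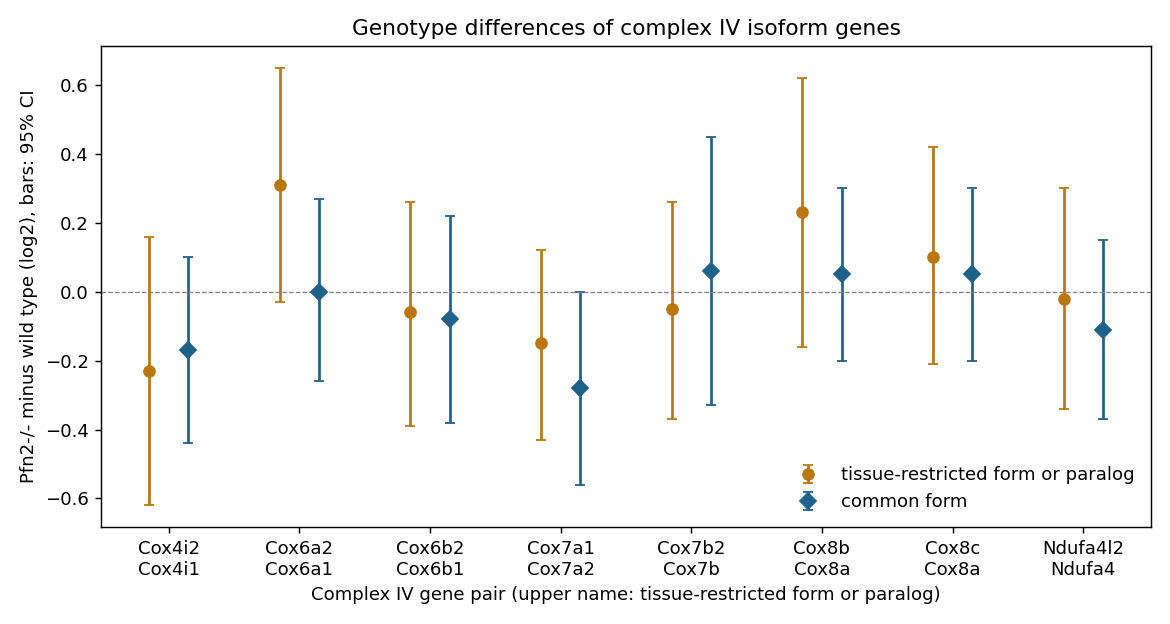
Difference between genotypes (Pfn2-/- minus wild type, log2) with its 95% confidence interval for 8 pairs of complex IV genes. Circles are the tissue-restricted form or paralog, the upper name, and diamonds the common form, the lower name. All intervals hold 0 except that of Cox7a2, whose upper end lies at 0 on this scale, and Cox6a2 has the highest estimate at 0.31.

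ATP synthase had 16 of 17 genes below 0, with a median of -0.16. At p under 0.05, 2 were lower and 0 higher, beside 2.62% and 2.67% of all genes. In 7 genes all Pfn2-/- values lay below all wild-type values, beside 4.76% of all genes. The count below 0 stayed between 15 and 17 of 17 when each array was left out in turn, and at 16 of 17 after median centring, repeated quantile normalization and cyclic loess. In the catalytic head, Atp5a1 lay at 9.64, 9.55 and 9.65 in Pfn2-/- liver and at 9.77, 9.81 and 9.87 in wild-type liver (-0.20, SE 0.11). Atp5b lay at 10.36, 10.38 and 10.31 in Pfn2-/- liver and at 10.42, 10.55 and 10.57 in wild-type liver (-0.16, SE 0.12). Both head genes were thus lower in every Pfn2-/- array, by 1.15-fold and 1.12-fold on average, with limma adjusted p of 0.952 and 0.954.

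The central stalk turns inside the head. Its smallest subunit, Atp5e, lay at 7.07, 6.77 and 6.76 in Pfn2-/- liver and at 7.24, 7.34 and 7.09 in wild-type liver. The groups did not overlap, but their nearest arrays, Pfn2-/- replicate 1 and wild-type replicate 3, lay close together (-0.36, SE 0.14, 1.28-fold lower, unadjusted p = 0.0265 and limma adjusted p = 0.915). A dimmer row of Atp5e, also among genes of its own chromosome, lay at 5.71, 5.35 and 5.73 in Pfn2-/- liver and at 5.39, 5.60 and 5.65 in wild-type liver (0.05, SE 0.15), with overlap. With the mean of both rows the difference of Atp5e was also -0.15. The other stalk genes Atp5c1 and Atp5d differed by -0.08 (SE 0.12) and -0.26 (SE 0.20), both with overlap.

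The membrane ring of ATP synthase is built from subunit c, for which 3 genes encode the same mature protein with different import sequences. Atp5g1 lay at 5.48, 5.37 and 5.68 in Pfn2-/- liver and at 5.67, 6.05 and 6.04 in wild-type liver. The groups overlapped, since wild-type replicate 1 lay just under Pfn2-/- replicate 3 (-0.41, SE 0.15, 1.33-fold lower, unadjusted p = 0.0205 and limma adjusted p = 0.915). Atp5g2 and Atp5g3 differed by 0.03 (SE 0.12) and -0.03 (SE 0.12), with values of 9.10 to 9.32 in Pfn2-/- liver and 9.16 to 9.24 in wild-type liver for Atp5g2. The row of Atp5g2 used here, also in the log ratio below, lies among genes of another chromosome. Its dimmer row, on the gene's own chromosome, differed by 0.01 (SE 0.12). The within-array log ratio of Atp5g1 differed between genotypes by -0.44 over Atp5g2 and by -0.38 over Atp5g3. In both cases the exact permutation p was 0.1, the smallest that 3 against 3 arrays can give, and 0.5 after adjustment over the 10 pairs.

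In the peripheral stalk, which holds the head still, Atp5j differed by -0.20, Atp5pb by -0.15, Atp5o by -0.06 and Atp5h by -0.05. The row of Atp5h used here was the bright one among genes of another chromosome. Its dimmer row, on the gene's own chromosome, lay at 5.13, 5.51 and 5.16 in Pfn2-/- liver and at 5.47, 5.90 and 5.36 in wild-type liver (-0.31, SE 0.17). The 5 small membrane subunits all lay below 0, Atp5k by -0.22, Atp5mpl by -0.21, Atp5l by -0.16, Atp5j2 by -0.15 and Atp5md by -0.13. Atp5l stood out for its narrow spread, at 7.70, 7.67 and 7.69 in Pfn2-/- liver and at 7.77, 7.87 and 7.89 in wild-type liver. Only Atp5g2 of the 17 genes lay above 0.

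**Figure D5:**
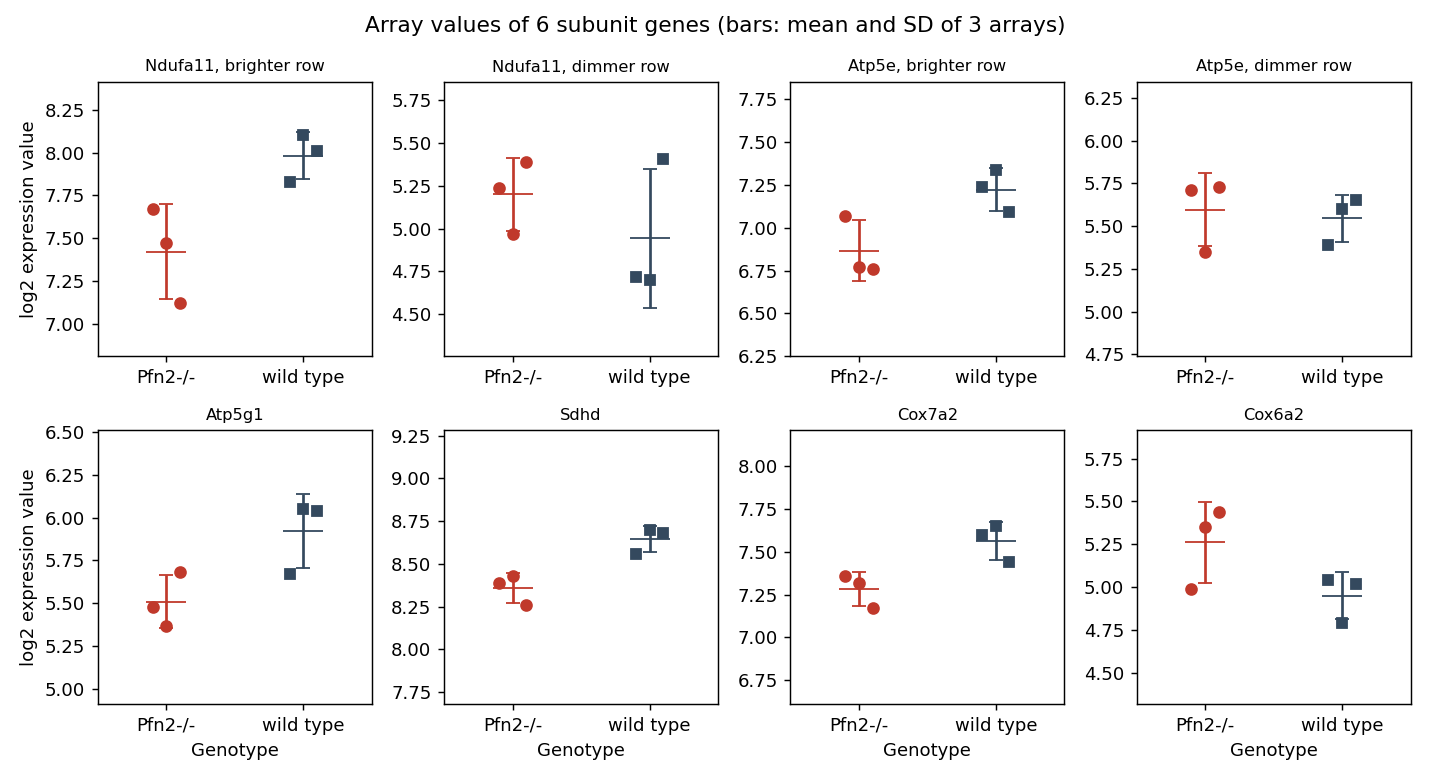
Log2 values on each array for Ndufa11 and Atp5e (brighter and dimmer row), Atp5g1, Sdhd, Cox7a2 and Cox6a2, with Pfn2-/- as red circles on the left, wild type as dark squares on the right, and the mean and SD of 3 arrays as bars. Every panel spans the same range of log2 units. The brighter rows of Ndufa11 and Atp5e lie lower in Pfn2-/- liver, and their dimmer rows do not.

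The pseudogene rows lay above 0. Atp5c1-ps lay at 2.98, 3.12 and 4.38 in Pfn2-/- liver and at 2.92, 3.40 and 2.82 in wild-type liver (0.45, SE 0.33), a difference set by Pfn2-/- replicate 3. Uqcrh-ps1 lay at 3.90, 3.51 and 3.97 in Pfn2-/- liver and at 3.60, 2.99 and 3.75 in wild-type liver (0.35, SE 0.21). Both rows were dim, and both groups overlapped.

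In most lists of other genes of the pathway more genes lay below 0 than above it, and 0 passed the adjusted threshold by limma. The exceptions were the assembly factors of complex II and complex III and the genes of cristae. For complex IV assembly factors, 13 of 22 lay below 0 (median -0.03), and 3 were lower and 0 higher at p under 0.05, beside 2.62% and 2.67% of all genes. Cox10, which converts heme b to heme O on the way to the heme A of complex IV, lay at 6.03, 5.98 and 5.79 in Pfn2-/- liver and at 6.36, 6.54 and 6.26 in wild-type liver (-0.45, SE 0.13, limma adjusted p = 0.789). Coa6, a factor of copper delivery, differed by -0.32 (SE 0.13), and in both the groups did not overlap. Lyrm7, which helps insert the Rieske protein in complex III, differed by -0.36 (SE 0.14) and was the only complex III factor of 6 at p under 0.05. Of 18 complex I assembly factors 0 reached that level (median -0.03), led by Ndufaf6 at -0.26 (SE 0.13). The same held for the 4 complex II factors (median 0.03) and for the 6 ATP synthase factors, whose differences ran from -0.16 to -0.09.

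The list for the citric acid cycle, which feeds the chain, was drawn up to include genes of pyruvate dehydrogenase and pyruvate carboxylase. In this list 16 of 18 genes lay below 0 (median -0.13), beside 49.9% of all genes and 55.3% of those above the median level. At p under 0.05, 3 were lower and 0 higher, beside 2.62% and 2.67% of all genes. The fumarase gene Fh1 lay at 9.74, 9.84 and 9.74 in Pfn2-/- liver and at 10.19, 10.31 and 10.05 in wild-type liver (-0.41, SE 0.12, limma adjusted p = 0.791). Dlat, of the pyruvate dehydrogenase complex, differed by -0.50 (SE 0.15), and neither gene overlapped between genotypes. Of 19 regulators of mitochondrial biogenesis 12 lay below 0 (median -0.04) and 1 reached p under 0.05. It was Ppargc1a, the coactivator PGC-1 alpha, which fasting is known to induce in liver, at 6.58, 7.13 and 6.33 in Pfn2-/- liver and 7.58, 7.62 and 6.81 in wild-type liver (-0.66, SE 0.25, limma adjusted p = 0.915). Its groups overlapped at wild-type replicate 3. Of 15 genes of ubiquinone synthesis and cytochrome c 12 lay below 0 (median -0.08), with Coq10b at -0.33 (SE 0.15) and Coq8a at 0.49 (SE 0.22).

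For the counts that follow, 49.9% of all genes lay below 0, and 2.62% were lower and 2.67% higher at p under 0.05. Of 12 genes of cristae and cardiolipin 5 lay below 0 (median 0.01), and 2 were lower at p under 0.05. They were the cardiolipin synthase gene Crls1 (-0.33, SE 0.13) and the cristae junction gene Chchd3 (-0.26, SE 0.11). Of 15 carriers and uncoupling proteins 10 lay below 0 (median -0.14), led by the adenine nucleotide carrier gene Slc25a4 (-0.33, SE 0.16). The 8 other donors of electrons to ubiquinone had 6 below 0 (median -0.12). Mitochondrial ribosomal protein genes had 53 of 71 below 0 (median -0.05), with 0 at p under 0.05. Those of smallest p were Mrps26 at -0.28 (SE 0.13), with overlap, and Mrpl49 at 0.24 (SE 0.12), with all Pfn2-/- values above wild type. Cytosolic ribosomal protein genes had 40 of 64 below 0 (median -0.06), with 2 lower and 2 higher at p under 0.05. Of these, Rpl30 lay at 3.53, 3.93 and 3.37 in Pfn2-/- liver and at 4.16, 4.70 and 4.50 in wild-type liver (-0.84, SE 0.18, limma adjusted p = 0.644). Its row was dim, with Pfn2-/- replicates 1 and 3 below the lower quartile of all rows of their arrays (3.55 and 3.57). Subunits encoded by mitochondrial DNA were not analysed here.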

How the data were processed

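Total RNA came from frozen liver by Trizol and was biotin-labelled with a WT PLUS kit, per the labels' protocols. The authors deposited log2 expression values with 2 decimals for 34390 rows. The submitters' processing notes name RMA and limma without versions. RMA makes the arrays' distributions alike, so a shift shared by most genes would not show.

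Rows were named from the platform annotation. Of them 23521 had 1 symbol, 1814 several and 9055 none, and the row of highest mean over 6 arrays stood for a gene. Genotypes were compared over 22180 genes with limma 3.58.1 in R 4.3.3 (lmFit and eBayes, two-sided, Benjamini-Hochberg), tested on simulated data. An unadjusted p under 0.05 serves as description. Exact permutation tests served 10 isoform pairs. Genes were named by a rule: all forms of an isoform set, all of complex II, and per complex the 3 of smallest p and those of highest and lowest mean. Per related list at most the 2 of smallest p were named, and some of these are not given. Other members named, and Hspa1b, Fasn and Saa2, were chosen after their values were seen. The members, lists and tests were chosen with earlier results of these data known. Alternatives numbered 18, with 2 added after seeing the data.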

Additional observations from a re-analysis of the deposited data

How the results depend on the processing

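Under all 18 planned and 2 added alternatives 0 members passed the adjusted threshold by limma, and the medians of all members, of complexes I to III and of ATP synthase stayed below 0. With single arrays left out, 0 to 6 of all genes passed (3 without Pfn2-/- replicate 2, 2 without Pfn2-/- replicate 3, 1 without wild-type replicate 2, 6 without wild-type replicate 3), 1 to 3 members were lower and 0 to 1 higher at p under 0.05, and the complex IV median ran from -0.11 to -0.03. Without both arrays of number 3, 24 genes passed and 2 members were lower, and Atp5g2 was at -0.04, Cox6b2 at 0.07, Cox7b at -0.21, Cox7b2 at 0.06, Ndufa4l2 at 0.13, Sdha at 0.05 and Sdhc at -0.08. Array weights gave 2 genes, a complex IV median of -0.02, Cox6b2 at 0.01 and Cox7b2 at 0.02. The mean of a gene's rows gave 3 lower members, with Ndufa11 and Atp5e both at -0.15 and no longer at p under 0.05, and Cox7b at -0.03. Ndufb9 was at -0.03 after cyclic loess, -0.01 after median centring and -0.03 after repeated quantile normalization. The sign also turned with single arrays left out for Ndufb9 (-0.01 to 0.03), Atp5g3 (-0.07 to 0.04), Cox7b2 (-0.17 to 0.01), Atp5g2 (-0.03 to 0.08), Cox7b (-0.11 to 0.20), Ndufa4l2 (-0.13 to 0.09), Ndufs5 (-0.23 to 0.08), Sdhc (-0.09 to 0.12) and Cox6b2 (-0.16 to 0.07). With the row among genes of the own chromosome, an alternative chosen after seeing the data, Cox7b was at -0.13 and Ndufa11 at 0.26. The causes were not tested.

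The replicate block, in which the number is also the age, gave 7 genes, 3 lower members and 1 higher, Uqcrh-ps1. Deviations of same-numbered arrays correlated at -0.08, 0.15 and 0.02, and those of differently numbered arrays at -0.17 to 0.18. The number matches the arrays by age, and with 3 arrays per genotype these correlations cannot tell whether they were paired in another way.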
